A study of Mus musculus with 27 samples.

Results

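The genes described here are 10 structural genes of the synaptonemal complex and of meiotic cohesin, chosen by symbol among the 24065 genes of an RNA-Seq count table of mouse embryos. They are called axis genes below for short, although the products of Sycp1, Syce1, Syce2 and Tex12 lie between the axes. They are Sycp1, Sycp2, Sycp3, Syce1, Syce2, Tex12 and Hormad1, which build or decorate the synaptonemal complex and its axes, and Smc1b, Stag3 and Rec8, which encode cohesin subunits used in meiosis. All 10 were found in the table and all 10 passed the filter on low counts, which kept genes whose mean over the 6 libraries reached 10. Expression was measured in whole C57BL/6J embryos at embryonic day 8.5 (E8.5), with 3 wild type (WT) embryos and 3 Dnmt3b-/- littermates and 1 library for each embryo. Dnmt3b encodes a DNA methyltransferase that methylates DNA de novo. The Dnmt3b-/- embryos are homozygous for a catalytically inactive allele that was made by crossing a floxed line with a ubiquitous ACTB-Cre deleter, so every cell lineage of the embryo carries it. The comparison asks which of these genes change in transcript level when DNMT3B activity is absent.

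The synaptonemal complex is a protein zipper that holds homologous chromosomes together in meiotic prophase. SYCP2 and SYCP3 lie along the axis of each chromosome, SYCP1 forms the transverse filaments that bridge the axes, and SYCE1, SYCE2 and TEX12 belong to the central element where the filaments meet. Meiotic cohesins replace subunits of the mitotic ring, with SMC1B in place of SMC1A, STAG3 in place of STAG1 or STAG2, and REC8 in place of RAD21. Meiosis does not take place in the somatic tissues of an embryo, and at E8.5 the germ line is a small group of primordial germ cells. Many germline promoters are known to be held silent in somatic cells by DNA methylation and by a variant Polycomb complex that contains E2F6, MGA and MAX, which read E2F sites and E-boxes.

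The promoters are shown first because their sequence was not used to choose the genes. For each gene the 300 bases from 250 before to 50 after the transcript start were read from RefSeq on the GRCm38.p6 assembly, the same build (mm10) as the counts. All 10 genes had an entry. Printed below are the 3 genes with the largest increases (Hormad1, Sycp1 and Tex12), 2 genes that rose and hold neither motif (Sycp2 and Syce1), and Rec8, which was not called. Capitals mark the E2F core TCCCGC or its reverse complement GCGGGA, and the E-box CACGTG, which reads the same on both strands.
Hormad1, chr3:95559427-95559726, plus strand: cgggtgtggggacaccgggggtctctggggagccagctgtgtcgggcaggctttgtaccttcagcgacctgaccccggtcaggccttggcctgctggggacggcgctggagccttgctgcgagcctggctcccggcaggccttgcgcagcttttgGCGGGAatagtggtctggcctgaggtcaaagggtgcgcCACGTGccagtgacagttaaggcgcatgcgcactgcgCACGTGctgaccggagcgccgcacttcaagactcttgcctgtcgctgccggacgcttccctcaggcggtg
Sycp1, chr3:102936051-102936350, minus strand: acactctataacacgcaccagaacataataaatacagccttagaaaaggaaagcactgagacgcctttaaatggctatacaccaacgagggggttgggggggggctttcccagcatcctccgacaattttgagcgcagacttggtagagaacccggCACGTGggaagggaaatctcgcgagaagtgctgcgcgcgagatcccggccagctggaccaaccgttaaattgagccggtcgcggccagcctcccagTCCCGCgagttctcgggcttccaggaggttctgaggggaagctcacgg
Tex12, chr9:50561219-50561518, minus strand: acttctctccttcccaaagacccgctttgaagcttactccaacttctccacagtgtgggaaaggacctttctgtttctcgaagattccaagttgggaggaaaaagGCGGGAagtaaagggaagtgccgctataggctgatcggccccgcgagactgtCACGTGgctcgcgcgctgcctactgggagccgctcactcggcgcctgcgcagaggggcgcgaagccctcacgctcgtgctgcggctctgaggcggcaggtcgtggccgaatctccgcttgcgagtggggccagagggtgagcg
Sycp2, chr2:178407609-178407908, minus strand: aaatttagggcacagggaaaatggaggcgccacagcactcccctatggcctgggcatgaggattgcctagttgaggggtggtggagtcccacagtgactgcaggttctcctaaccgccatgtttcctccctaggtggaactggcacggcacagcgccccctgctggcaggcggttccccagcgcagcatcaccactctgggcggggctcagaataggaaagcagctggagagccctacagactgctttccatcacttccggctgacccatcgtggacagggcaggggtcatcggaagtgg
Syce1, chr7:140787805-140788104, minus strand: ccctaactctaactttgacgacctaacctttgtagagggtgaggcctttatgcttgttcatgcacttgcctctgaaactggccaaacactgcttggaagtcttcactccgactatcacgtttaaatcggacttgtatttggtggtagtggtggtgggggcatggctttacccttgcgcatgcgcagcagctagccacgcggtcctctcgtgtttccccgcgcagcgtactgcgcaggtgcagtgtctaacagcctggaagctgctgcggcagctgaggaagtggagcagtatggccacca
Rec8, chr14:55617916-55618215, plus strand: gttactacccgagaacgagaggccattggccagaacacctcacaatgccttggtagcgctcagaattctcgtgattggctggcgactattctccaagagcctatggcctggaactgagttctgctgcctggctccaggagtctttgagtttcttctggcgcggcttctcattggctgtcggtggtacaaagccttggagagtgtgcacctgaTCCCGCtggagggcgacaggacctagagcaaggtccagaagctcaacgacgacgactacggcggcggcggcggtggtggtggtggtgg

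The E2F core was found in the promoters of 8 of the 10 genes, and it is present in 19.98% of all 32851 promoters of the same length. The E-box was found in 6 of the 10 genes, against 7.15% of all promoters. The same 6 genes (Sycp1, Sycp3, Syce2, Tex12, Hormad1 and Stag3) hold both motifs, which occur together in 1.99% of all promoters. A gene was counted where any of its starts held the motif, while the shares are per promoter. In Syce2 the first start holds the E2F core without an E-box. Smc1b and Rec8 hold only the E2F core. The 12 starts listed for these genes have 10 to 33 CpGs in the window, with Sycp2 the lowest, while the median over all promoters is 7. Among the 14281 promoters with at least 10 CpGs, a background added after the values were seen, 40.3% hold the E2F core, 10.9% the E-box and 4.35% both. These matches describe letters in a window and do not show that a factor binds there.

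**Figure D1:**
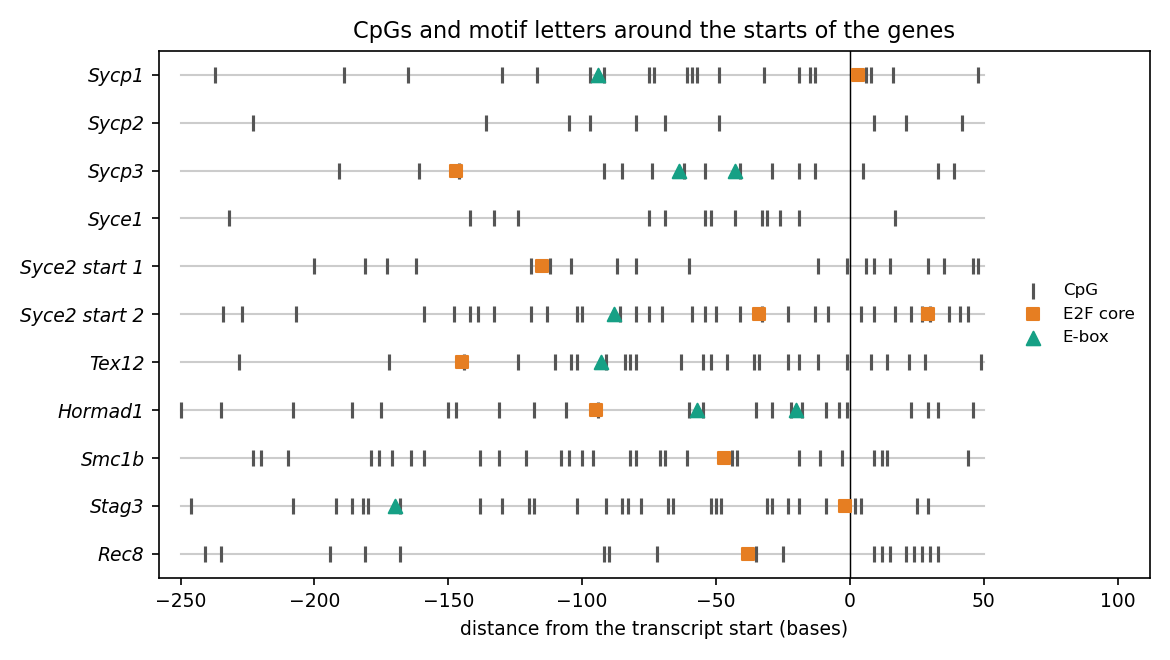
Positions of CpGs (grey bars), E2F core matches (orange squares) and E-box matches (green triangles) from 250 bases before to 50 bases after each transcript start, in bases from the start, with 1 line for each start. Syce2 has 2 separate starts, and the second start of Hormad1, which lies 2 bases from the first, is not drawn. Sycp2 and Syce1 carry CpGs but neither motif.

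The libraries held 41489332 to 58470286 counts on genes, and 3 counts correspond to between 2.37 and 3.49 normalized counts, that is, counts scaled by TMM to the mean library size. Dnmt3b itself was at 7265, 13959 and 6281 normalized counts in WT embryos 1, 2 and 3 and at 4064, 4542 and 4741 in the Dnmt3b-/- embryos, a log2 fold change of -1.04 ± 0.27 (SE, edgeR quasi-likelihood test, adjusted p = 0.0169). The groups did not overlap, and these counts cover the whole gene without singling out the deleted exons. The decrease did not pass the test with a trend on GC content and length removed (adjusted p = 0.0636, and 0.0706 with a replicate block as well) or with any 1 Dnmt3b-/- embryo left out (adjusted p = 0.0555 to 0.0613). Without WT embryo 2 it passed the test at -0.61 (adjusted p = 0.00262) and missed the 2-fold threshold. All 12 marker genes of E8.5 tissues (heart, blood, vessels, neural tube, mesoderm) were detected in every embryo. None of them was called, where 2.12% of all tested genes were called higher and 3.78% lower. At an adjusted p below 0.05, 3 of the 12 were higher and 2 lower (17.6% and 18.1% of all tested genes). Under each alternative at most 1 of the 12 was called, which occurred with the GC and length trend removed (with or without the replicate block) and without WT embryo 2 or 3. Without WT embryo 2 this was Hbb-bh1, named after its values were seen, at a log2 fold change of -1.23 (adjusted p = 0.0309). WT embryo 2 stood apart, with 837 normalized counts of the pluripotency gene Pou5f1, singled out after its values were seen, against 71.1 and 68.8 in the other WT embryos, and with the highest extraembryonic endoderm signal (10 markers summing to 4186 CPM, counts scaled to the library total, and to 251 to 1324 in the other embryos). Values without this embryo are given where they change a call. In whole embryos, more cells that express a gene and more RNA in each cell cannot be told apart.

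The genes were compared by the edgeR quasi-likelihood test over the 15114 genes that passed the filter. A gene was called where its Benjamini-Hochberg adjusted p was below 0.05 and it changed by more than 2-fold. In Dnmt3b-/- embryos 7 of the 10 axis genes were called higher, while 2.12% of all tested genes were. None was called lower, against 3.78% of all tested genes. At an adjusted p below 0.05 alone, 8 of 10 were higher (17.6% of all genes) and none lower (18.1% of all genes). In 8 of 10 genes the lowest Dnmt3b-/- embryo lay above the highest WT embryo, which held for 25.3% of all genes. In none did every mutant lie below every WT embryo, against 26.5% of all genes. The median log2 fold change of the 10 genes was 3.37, and that of all tested genes was -0.03. Hormad1, Tex12, Sycp1 and Sycp2, all called, passed the filter only through their counts in Dnmt3b-/- embryos. A gene as low in both genotypes as these were in WT embryos would not have been tested. With no filter, 7 of the 10 were called higher, where 309 of 19375 tested genes were. No gene of the group remained silent in the mutant, since every one of the 10 had more than 3 counts in each of the 3 Dnmt3b-/- embryos. Sycp3 and Rec8 did not pass the test.

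**Figure D2:**
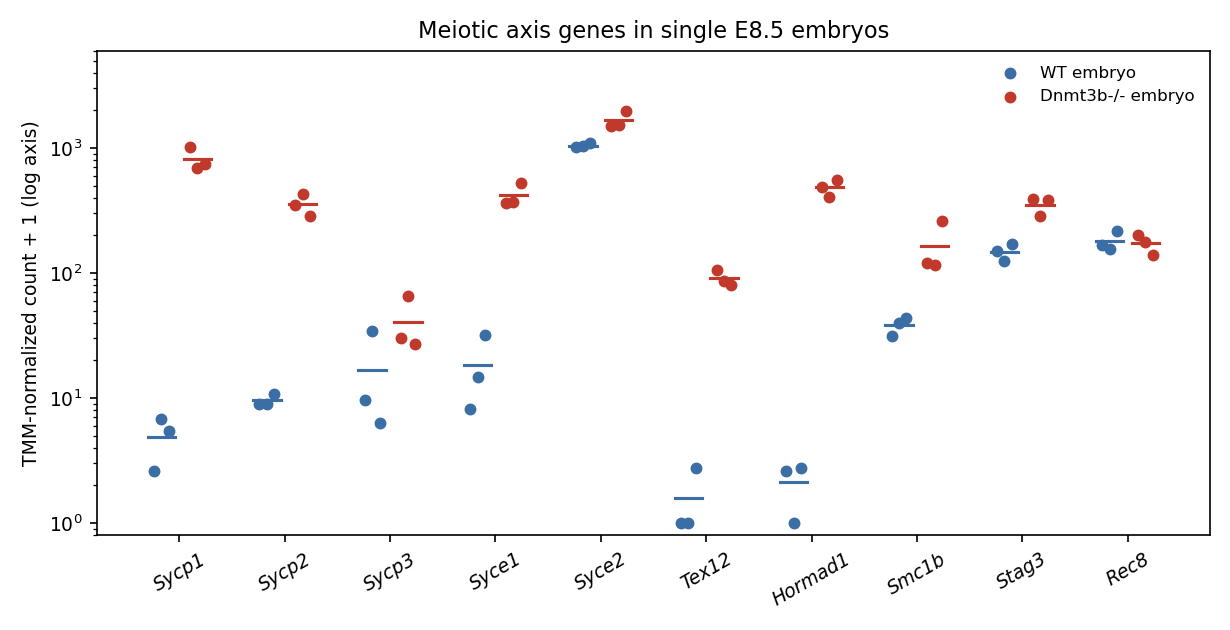
TMM-normalized counts plus 1 on a log axis for the 10 genes, with 1 point for each embryo (blue, 3 WT; red, 3 Dnmt3b-/-) and a line at the mean of each group. Hormad1, Tex12 and Sycp1 lie near the bottom of the axis in WT embryos and between 79.1 and 1010 normalized counts in Dnmt3b-/- embryos, while the groups overlap for Sycp3 and Rec8.

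Among the lateral parts of the axis, Hormad1 had the largest change. HORMAD1 coats unsynapsed axes and is needed for normal break formation and synapsis in meiotic prophase. The gene (chr3:95559677-95587863, plus strand) had raw counts of 2, 0 and 2 in WT embryos and of 490, 349 and 493 in Dnmt3b-/- embryos. It was thus at or under 3 counts in all 3 WT embryos, and far above that in each mutant. In normalized counts the Dnmt3b-/- embryos were at 489, 406 and 557, a mean of 484 ± 76 (SD, n = 3) against 1.11 ± 0.97 in WT. The ratio of the summed counts, scaled for library size, was 397 (95% interval 155 to 1459, exact binomial, counting error only). The fitted log2 fold change was 8.5 ± 0.42 (SE, adjusted p = 0.000154), and its exact size depends on how the few WT counts are treated. With the GC and length trend removed, the log2 fold changes of Hormad1, Sycp1 and Sycp2 were 7.72, 6.94 and 4.73, still called.

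Sycp2 and Sycp3 encode the proteins of the axial and lateral elements and differed in their response. Sycp2 (chr2:178345295-178407776, minus strand) was at 7.90, 8.01 and 9.70 normalized counts in WT embryos and at 350, 426 and 286 in Dnmt3b-/- embryos. All mutants were far above all WT embryos, with a log2 fold change of 5.35 ± 0.29 (adjusted p = 0.000154). Sycp3 (chr10:88459587-88473236, plus strand) was at 8.69, 33.2 and 5.29 normalized counts in WT embryos and at 29.0, 64.0 and 26.0 in Dnmt3b-/- embryos. WT embryo 2 lay above 2 of the 3 mutants, so the groups overlapped. The log2 fold change of 1.36 ± 0.73 did not pass the test (adjusted p = 0.182). Without WT embryo 2 it was 2.47 ± 0.69 (adjusted p = 0.0241), which would add Sycp3 to the called genes and make 8 of 10. After a trend on GC content and length had been removed, it was 0.71 (adjusted p = 0.512).

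The counts of Sycp3 carry a further limit. Its exons share 80 bases, 7.13% of their length, with curated transcripts of Chpt1 on the opposite strand, and 47.8% when predicted transcripts are included. Chpt1, a phospholipid synthesis gene singled out after its values were seen, was at 878 ± 25 normalized counts in WT and 1362 ± 208 in Dnmt3b-/- embryos. The library kit keeps strand information, but the strand setting of the counting is not given in the sources used here. Whether Chpt1 reads enter the Sycp3 counts was not tested.

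Sycp1, the gene of the transverse filament, had raw counts of 2, 5 and 5 in WT embryos and of 1011, 594 and 658 in Dnmt3b-/- embryos. Normalized, these were 1.58, 5.72 and 4.41 in WT and 1010, 691 and 743 in the mutants, the highest normalized counts of the group in Dnmt3b-/- embryos after Syce2. The pooled ratio was 225 (95% interval 128 to 436, exact binomial). The gene (chr3:102818499-102936100, minus strand) had a fitted log2 fold change of 7.73 ± 0.35 (adjusted p = 0.000154).

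The central element genes ranged in WT embryos from nearly silent (Tex12) to a mean of 1043 normalized counts (Syce2). Tex12 (chr9:50557148-50561268, minus strand) had raw counts of 0, 0 and 2 in WT embryos and of 104, 73 and 70 in Dnmt3b-/- embryos. Both zeros allow up to 2.37 and 3.43 normalized counts, and the mutants were at 104, 84.9 and 79.1. The pooled ratio was 147 (95% interval 40.3 to 1222, exact binomial), and the fitted log2 fold change was 6.93 ± 0.75 (adjusted p = 0.000725). Without WT embryo 3, the only WT embryo with Tex12 counts, the fitted value was 9.45, and without WT embryo 1 it was 6.33, so that its size rests on these few counts. Of the exons of Tex12, 15.1% overlap predicted exons of Il18 on the other strand, and none of the curated ones.

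Syce1 (chr7:140777229-140787854, minus strand) was at 7.11, 13.7 and 30.9 normalized counts in WT embryos and at 361, 368 and 528 in Dnmt3b-/- embryos. WT embryo 3 was the highest of its group and still more than 10-fold below the lowest mutant. The log2 fold change was 4.59 ± 0.47 (adjusted p = 0.000616), and 5.36 without WT embryo 3 (adjusted p = 0.000928).

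Syce2 differed from the others in its starting level. It was at 1009, 1030 and 1091 normalized counts in WT embryos and at 1489, 1523 and 1978 in Dnmt3b-/- embryos. The groups did not overlap, and the log2 fold change was 0.67 ± 0.13, a 1.59-fold increase (adjusted p = 0.0051). The gene (chr8:84872111-84887446, plus strand) therefore passed the test and missed the fold threshold. With the GC and length trend removed, the log2 fold change was 1.19 ± 0.17 (adjusted p = 0.00299), past that threshold. Its exons have a GC content of 58.1%, the highest of the 10 genes, where the lowest is Sycp1 with 34.6%.

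Among the cohesin genes, Smc1b and Stag3 rose and Rec8 did not pass the test. Smc1b (chr15:85064689-85131957, minus strand), which encodes the meiotic SMC subunit, was at 30.02, 38.9 and 42.3 normalized counts in WT embryos and at 119, 114 and 259 in Dnmt3b-/- embryos. The third mutant was more than 2-fold above the other two, and all 3 were above every WT embryo. The log2 fold change was 2.14 ± 0.39 (adjusted p = 0.00428).

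Stag3 (chr5:138272514-138312397, plus strand), the meiotic STAG subunit, was at 148, 122 and 169 normalized counts in WT embryos and at 389, 284 and 383 in Dnmt3b-/- embryos. The groups were separate, with a log2 fold change of 1.26 ± 0.21 (adjusted p = 0.00291). Rec8 (chr14:55618002-55625395, plus strand), the meiotic kleisin that closes the cohesin ring, was at 167, 156 and 216 normalized counts in WT embryos and at 199, 177 and 139 in Dnmt3b-/- embryos. The groups overlapped, and the log2 fold change was -0.07 ± 0.23 (adjusted p = 0.85). Its sign changed with the processing, to 0.32 with the GC and length trend removed (adjusted p = 0.311), so that no direction can be given. Rec8 was not silent in WT embryos, where it had 136 to 245 raw counts.

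**Figure D3:**
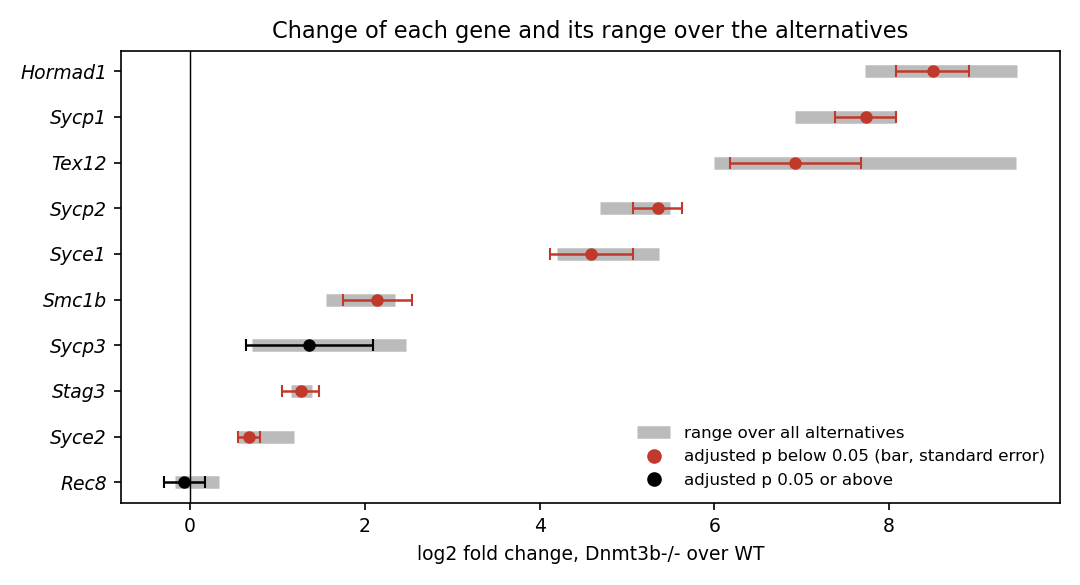
Log2 fold change of Dnmt3b-/- over WT for each gene (points, with the standard error as a bar; red, adjusted p below 0.05; black, 0.05 or above) over the range given by all alternative settings (grey). The ranges of the 8 red genes stay above 0, from 0.54 for Syce2 upwards, while that of Rec8 runs from -0.17 to 0.33.

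Levels can be compared between genes only per length, and for this FPKM values were computed, which scale the count by exon length and by the total count of the library. In WT embryos the mean FPKM fell from Syce2 (16.3 ± 0.7) through Rec8 (1.61 ± 0.30), Stag3 (0.659 ± 0.110), Sycp3 (0.297 ± 0.284), Syce1 (0.252 ± 0.180) and Smc1b (0.196 ± 0.033) to Sycp2 (0.0254), Sycp1 (0.0233), Tex12 (0.0205) and Hormad1 (0.0125). The ranges of neighbours in this order did not overlap between Syce2 and Rec8, Rec8 and Stag3, and Smc1b and Sycp2, and overlapped elsewhere. Syce2 was thus the only one of the 10 genes above 2 FPKM in WT embryos.

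In Dnmt3b-/- embryos Syce2 remained the highest (24.5 ± 3.3 FPKM), followed by Syce1 (5.78 ± 1.13), Hormad1 (5.11 ± 0.74), Sycp1 (4.66 ± 1.11) and Tex12 (2.94 ± 0.52). Syce1 overlapped with Hormad1 and Hormad1 with Sycp1, and Tex12 lay below Sycp1 and above Stag3 without overlap. Below it came Stag3 (1.5 ± 0.26), Rec8 (1.46 ± 0.30), Sycp2 (0.999 ± 0.210), Smc1b (0.816 ± 0.384) and Sycp3 (0.717 ± 0.382), each of which overlapped with the next. Hormad1 went from the lowest of the 10 genes in WT to the third in the mutant. With the longest transcript in place of all exons, Rec8 and Stag3 exchanged places in Dnmt3b-/- embryos and no other place changed.

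The 3 mutant embryos did not rank alike across the genes. Embryo 1 had the highest normalized count for 4 genes, embryo 2 for 2 and embryo 3 for 4, and the lowest was found in embryo 1 for 2 genes and in embryos 2 and 3 for 4 each. The coefficient of variation among mutants was 14.5% for Tex12 and 15.6% for Hormad1, and reached 50.2% for Smc1b and 53.3% for Sycp3. The embryo with the most Sycp1 was embryo 1, and that with the most Sycp2 and Sycp3 was embryo 2.

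The meiotic cohesin subunits were set against their mitotic counterparts by FPKM in each embryo. Smc1b amounted to 0.183%, 0.234% and 0.245% of Smc1a in WT embryos and to 0.501%, 0.417% and 0.831% in Dnmt3b-/- embryos. Stag3 amounted to 1.29%, 0.933% and 1.47% of Stag1 plus Stag2 in WT and to 2.92%, 1.99% and 2.44% in the mutants. For both ratios every mutant was above every WT embryo, which gives an exact two-sided permutation p = 0.1, the smallest that 3 against 3 embryos allow. Rec8 amounted to 1.91%, 1.89% and 2.76% of Rad21 in WT and to 2.22%, 1.99% and 1.47% in the mutants, and the groups overlapped. In no embryo did a meiotic subunit exceed 2.92% of its mitotic counterpart.

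**Figure D4:**
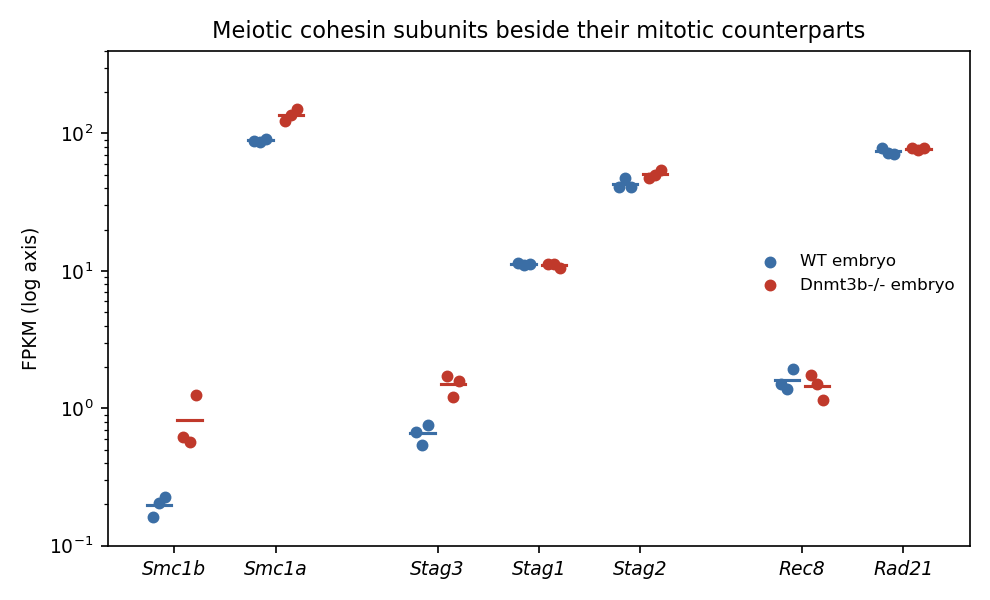
FPKM on a log axis of Smc1b, Stag3 and Rec8 beside their mitotic counterparts, with 1 point for each embryo (blue, 3 WT; red, 3 Dnmt3b-/-) and a line at the mean. Smc1b and Stag3 are higher in all 3 Dnmt3b-/- embryos but remain far below Smc1a, Stag1 and Stag2, and the Rec8 points of the genotypes overlap.

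The mitotic counterparts were also tested. Smc1a, which encodes the SMC subunit of mitotic cohesin, rose by a log2 fold change of 0.71 ± 0.10 (adjusted p = 0.00159). Stag2 had 0.32 ± 0.10 (adjusted p = 0.0396, between 0.011 and 0.854 over the alternatives), Rad21 had 0.14 ± 0.07 (adjusted p = 0.155) and Stag1 had 0.04 ± 0.06 (adjusted p = 0.63). Of 16 mitotic cohesin genes and regulators tested, none was called (2.12% of all tested genes higher and 3.78% lower), and the median log2 fold change was 0.34. At an adjusted p below 0.05, 10 were higher (17.6% of all tested genes) and 3 lower (18.1%). With the GC and length trend removed, these counts were 2 higher and 4 lower with a median of 0.06, and Smc1a was at 0.62 (adjusted p = 0.00639). Stag2 was then at -0.03 (adjusted p = 0.838) and Stag1 at -0.26 (adjusted p = 0.0301), so that no direction can be given for either. Over all tested genes, that step moved the called genes from 320 to 314 higher and from 571 to 141 lower. The shares at an adjusted p below 0.05 alone are not given here for that step. Smc1a and Stag2 are X-linked, and Xist, the RNA of the inactive X, named after its values were seen, had 18577 and 15248 raw counts in WT embryos 1 and 3, 18781 in Dnmt3b-/- embryo 2, and 3 to 11 in the other 3 embryos. The part of embryo sex in these values was not tested.

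Other genes of the meiotic chromosome were described by a list of 16, of which 13 were in the table and 11 were tested. Of these, 5 were called higher (2.12% of all tested genes) and none lower (3.78%). At an adjusted p below 0.05, 7 were higher (17.6% of all tested genes), and the median log2 fold change was 0.80. With the GC and length trend removed, 4 were called higher, where 314 of all 15114 tested genes were, and the median was 0.30. Tex11, an X-linked gene needed for crossovers, was at 3.95, 6.87 and 9.70 normalized counts in WT and at 232, 256 and 193 in the mutants, with no overlap and a log2 fold change of 5.04 ± 0.37 (adjusted p = 0.000369). It passed the filter only through its counts in Dnmt3b-/- embryos. Fkbp6, whose protein was found on the synaptonemal complex, was at 5.53, 18.3 and 8.82 in WT and at 181, 190 and 155 in the mutants, a log2 fold change of 4.04 ± 0.43 (adjusted p = 0.000704).

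The others called were smaller in size. Hormad2, the paralogue of Hormad1, rose by 1.56 ± 0.37 on the log2 scale (adjusted p = 0.0119), from 29.9 ± 8.4 to 88.0 ± 22.4 normalized counts. Ccdc36, also named Iho1 and a partner of HORMAD1 in break formation, rose by 1.47 ± 0.34 (adjusted p = 0.0108). 4930447C04Rik (Six6os1), which encodes a central element protein, had a log2 fold change of 1.07 ± 0.18 (adjusted p = 0.00327) that was 0.17 with the GC and length trend removed (adjusted p = 0.57). The 2 genes below the filter were not tested. Syce3, a central element gene named after its values were seen, had 2, 0 and 1 raw counts in WT and 2, 3 and 6 in the mutants. In normalized counts its mutants lay above its WT embryos, at levels near 3 counts. Rad21l, a further meiotic kleisin named likewise, had 4 to 13 counts in WT and 5 to 14 in the mutants, and its groups overlapped.

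Regulators of meiotic entry and germ cell development were 13 in the list, 12 in the table and 9 tested. Of these, 4 were called higher (2.12% of all tested genes) and none lower (3.78%), and the median log2 fold change was 0.85. Stra8, which drives the entry into meiosis, had 3, 1 and 1 raw counts in WT and 60, 91 and 42 in the mutants, a pooled ratio of 46.0 (95% interval 19.4 to 143, exact binomial; fitted adjusted p = 0.000824). Sohlh2, a transcription factor of early germ cells, had 0, 0 and 1 raw counts in WT and 223, 85 and 153 in the mutants, a pooled ratio of 550 (95% interval 98.2 to 21754, exact binomial; fitted adjusted p = 0.000416). Its partner Sohlh1 was at 0 in all 6 embryos. Stra8 and Sohlh2 passed the filter only through their counts in Dnmt3b-/- embryos. The RNA-binding factor Dazl rose by 4.44 ± 0.60 on the log2 scale (adjusted p = 0.00134) and the RNA helicase Ddx4 by 3.19 ± 0.40 (adjusted p = 0.00105).

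**Figure D5:**
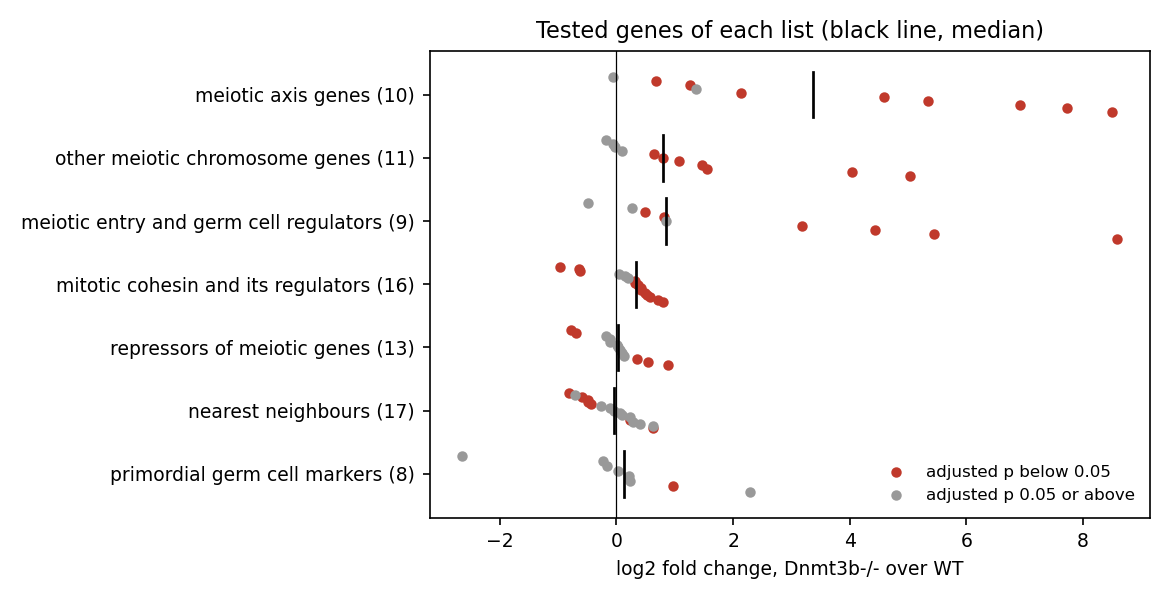
Log2 fold change of Dnmt3b-/- over WT for the tested genes of each list, with the number of genes in brackets, 1 point for each gene (red, adjusted p below 0.05; grey, 0.05 or above) and a black line at the median. The axis genes have a median of 3.37, the other meiotic chromosome genes 0.80 and the regulators of meiotic entry 0.85, while the medians of the repressors, the neighbours and the primordial germ cell markers lie at 0.03, -0.05 and 0.13.

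Markers of primordial germ cells were examined because these cells are the germ line of the embryo. Of 10 markers, 8 were tested and none was called, where 2.12% of all tested genes were called higher and 3.78% lower. At an adjusted p below 0.05, 1 was higher (17.6% of all tested genes), and the median log2 fold change was 0.13. Their summed level was 108 to 133 CPM in WT and 101 to 123 in Dnmt3b-/- embryos, so the groups overlapped. Most of each sum came from Alpl, Kit and Prdm1, named after their values were seen (2976, 1990 and 762 raw counts in WT embryo 1). The overlap therefore does not describe the markers with few counts. The 1 marker past the test, Ifitm3, named after its values were seen, had a log2 fold change of 0.96, near the fold threshold. Pou5f1 had the largest change of the 8 and went the other way, at -2.64 ± 1.01 (adjusted p = 0.074). Without WT embryo 2 it was at -0.44 (adjusted p = 0.57). The count of called markers moved with the setting. It was 1 higher with DESeq2, with the GC and length trend removed or without Dnmt3b-/- embryo 1. Without Dnmt3b-/- embryo 2 it was 2 higher. Without WT embryo 1 or 3 it was 1 lower, which was Pou5f1. None of the 10 was at 0 in all embryos. The defining markers Nanos3 and Prdm14, singled out after their values were seen, had 0 to 15 and 0 to 12 raw counts, and Dppa3, singled out likewise, had 9, 20 and 19 in WT and 34, 18 and 152 in the mutants (adjusted p = 0.0641). The part of these cells in the changes of the axis genes was not tested. In the same embryos the 10 extraembryonic endoderm markers summed to 492 to 4186 CPM in WT and 251 to 956 in the mutants. Of these, 1 (Amn) was called lower (3.78% of all tested genes) and none higher (2.12%), with a median log2 fold change of -1.20. Over the alternatives between 0 and 4 of them were called lower, with 4 without WT embryo 3. Without WT embryo 2 none was called, the median was -0.31 and Amn was at -1.31 (adjusted p = 0.127). Of 8 trophoblast and decidua markers 3 were tested, none was called and 4 were at 0 in every embryo.

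Among 14 repressors linked to meiotic genes, 13 were tested and none was called (2.12% of all tested genes higher and 3.78% lower). At an adjusted p below 0.05, 3 were higher and 2 lower, where the shares over all tested genes were 17.6% and 18.1%. The median log2 fold change was 0.03. With the GC and length trend removed, Max, named after its values were seen, was at 1.03 (adjusted p = 0.00316), just past the fold threshold, against 0.89 without that step.

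The nearest gene on each side of each axis gene was also examined. Of these 20 neighbours, 17 were tested and none was called (2.12% of all tested genes higher and 3.78% lower). At an adjusted p below 0.05, 2 of 17 were higher and 5 lower, where the shares over all genes were 17.6% and 18.1%, and the median log2 fold change was -0.05 (0.10 without WT embryo 2). With the GC and length trend removed, none was higher and 1 lower, and that gene, Zfp941 next to Syce1, named after its values were seen, was then past the fold threshold at -1.09. Over all tested genes, 141 were called lower after that step, against 571 before. A pair of neighbours start close to an axis gene on the opposite strand and were singled out for this position after their values were seen. Gpc2, a glypican gene whose start lies 572 bp from that of Stag3, had a log2 fold change of -0.49 ± 0.11 (adjusted p = 0.00948; -0.21 and adjusted p = 0.209 with the GC and length trend removed), where Stag3 had 1.26. Ribc2, whose start lies 141 bp from that of Smc1b, had 3, 0 and 6 raw counts in WT and 0 in all 3 mutants, where Smc1b had 98 to 229.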

How the data were processed

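RNA was extracted from whole E8.5 embryos, depleted of ribosomal RNA and made into stranded libraries, which were sequenced as read pairs. The authors aligned the reads to mm10 with TopHat2 2.0.12 and deposited raw counts per gene in RefSeq exons, made with HTSeq-count 0.6.0. The RefSeq release and strand setting are not given in the sources used here. They also deposited a normalized signal, the raw count over a DESeq2 1.4.5 size factor, which served here only to recover these factors for an alternative. The deposited log2 fold change and the deposited adjusted p-value of the authors' own DESeq2 comparison were not used. The bisulfite libraries were not analysed here.

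Raw counts were TMM-normalized and compared by genotype alone with edgeR 4.0.16 (R 4.3.3). The 15114 genes whose mean reached 10 counts were tested, with Benjamini-Hochberg adjustment over all of them. Replicates are separate embryos. FPKM used total counts and RefSeq exon length. A table of 24065 genes matched the RefSeq annotation for 99.1%. The GC and length correction removed a spline with 5 degrees of freedom on each from every library. Alternatives were no filter, a mean of at least 50 counts, other scalings, DESeq2 1.42.0, limma 3.58.1, a replicate block, each embryo left out, and other thresholds. On data simulated for Dnmt3b-/- against WT with 14949 genes, 97% of 199 changed genes were recovered, with 14 false calls. Neither the sizes of the changes put in nor the rule that counted a gene as recovered is given here. These values therefore give no share for small changes such as those of Syce2 or Stag3. Totals were 41489332 to 58470286 counts per library, and intervals cover counting error only, since the reads have no molecular identifiers.

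All 10 axis genes and Dnmt3b are named, and from the other lists the called genes (at most 6), the mitotic counterparts, genes at 0 throughout where the text turns on them, and called neighbours. Genes singled out later are marked. The genes and lists were chosen with earlier results of these data known. Python 3.11.15 with pandas 2.3.3, numpy 2.4.6, scipy 1.17.1 and matplotlib 3.10.9 served for tables and figures.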

Additional observations from a re-analysis of the deposited data

How the results depend on the processing

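Across the alternatives 5 to 8 of the 10 axis genes were called higher, and 7 to 9 were at an adjusted p below 0.05. The lowest counts came from a fold threshold of 5 (5 called) and from the filter at a mean of 50 counts (6 called of 8 tested, since that filter removed Sycp3 and Tex12). The median log2 fold change of 3.37 ranged from 3.04 to 3.81 with 1 embryo left out, the highest being without WT embryo 3. For Rec8 the log2 fold change of -0.07 became 0.32 with the GC and length trend removed, 0.33 with the replicate block as well, 0.089 without WT embryo 3 and 0.080 without Dnmt3b-/- embryo 3, and in none of these did it pass the test. With 1 embryo left out it ranged from -0.17 to 0.089. The decrease of Dnmt3b no longer passed the test at -0.83 with the GC and length trend removed (adjusted p = 0.0636), at -0.74 with the replicate block as well (adjusted p = 0.0706), or with 1 Dnmt3b-/- embryo left out (-1.08 to -0.97). It ranged from -1.25 without WT embryo 3 to -0.61 without WT embryo 2, where it still passed the test and missed the 2-fold threshold. The cause was not tested. Embryos with the same replicate number did not deviate together (correlations -0.05, -0.15 and -0.01). Each such pair holds 1 embryo with high Xist counts and 1 with few, so these correlations cannot decide whether the numbers pair littermates. The replicate block called the same number of axis genes, 7, with a median of 3.40. Scaling by total counts moved the median of all genes to -0.11, and 7 axis genes were called. Depth limits the size of the change of Hormad1, Tex12 and Sycp1, whose WT embryos had 0 to 5 counts.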
